A study of Mus musculus with 23 samples.

Results

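Chemokines and their receptors were read from the small intestine of mice on a high-fat diet with or without quercetin, a plant flavonol. All spots were taken whose gene name in the scanner files was Ccl, Cxcl, Ccr or Cxcr with a number and an optional letter, or Cx3cl1, Cx3cr1, Xcl1 or Xcr1, with 4 ligands left out (Ccl5, Ccl20, Cxcl9 and Cxcl10). This gave 73 spots of 64 probes for 50 genes, on an array of 55681 probes with 34741 gene names, and 35 of the 50 genes passed the filter on dim probes. The 50 genes comprised 11 homeostatic ligands of mucosa and lymphoid tissue, 15 inflammatory CC and XC ligands, 5 inflammatory CXC ligands and 19 receptors.

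The tissue was scraped from the small intestine of male adult C57BL/6J mice. All of them ate normal-fat chow for 3 weeks and high-fat food for the following 12 weeks, and were fasted for 2 to 4 hours before sampling. In the HF-Q group (11 mice) the high-fat food held 0.33% quercetin by weight, and in the HF group (12 mice) it held none. Of the 24 mice at the start, 1 on quercetin was dropped by the authors because of an abscess. Each array compared the RNA of a single mouse, in Cy5, with an equimolar pool made from all the mice, in Cy3, and the dyes were never swapped. The arrays lay on 3 slides that held 4, 3 and 4 HF-Q arrays and 4, 4 and 4 HF arrays. A level below is the normalized log2 ratio of a mouse to that pool, and levels of different genes were not ranked against each other. With the dyes never swapped, a level of 0 need not be the level of the pool. Ccl25, for example, was above 0 in every mouse, at 0.15 or more in HF-Q and 0.069 or more in HF. No mice kept on normal-fat food are analysed here, so both groups share the high-fat diet. All 10 enterocyte markers were well above background on every array, and of 8 hepatocyte markers 3 were so on every array and 2 on none, beside a protocol label that named liver. Between 27085 and 31525 probes per array were well above background.

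Chemokines are small secreted proteins that steer leukocytes along concentration gradients by binding G-protein-coupled receptors on the cell surface. Homeostatic chemokines are made without inflammation and keep lymphocytes in their places: in the small intestine they draw gut-homing T cells and IgA plasma cells to the mucosa and build the follicles of Peyer's patches. Inflammatory chemokines are made at low level in resting tissue and are induced by microbial or cytokine signals through transcription factors such as NF-kB, after which they recruit neutrophils, monocytes, eosinophils and effector T cells.

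The proximal promoters of 3 neutrophil-attracting ligands and of 3 genes of lymphoid tissue are shown, because the first set belongs to genes that were not measurable here and the second to genes that varied together. Sequences run 5′ to 3′ on the strand of the gene. RefSeq (GRCm38.p6) gave 40 promoter windows of 250 bases for 36 of the 50 genes. The letters GGANTTNCC, the core of an NF-kB consensus read on both strands, were found in 6 of the 40 windows (Cxcl1, Cxcl2, Cxcl3, Cxcr2, Ccr3 and Ccr6) and in 3.15% of 32851 windows of the same length over the genome. The letters TATAAA were found in 11 of the 40 windows and in 12.4% of all windows. The 100 bases before the start of Cxcl1 (chr5:90891145-90891244), Cxcl2 (chr5:90903799-90903898) and Cxcl3 (chr5:90786001-90786100), all on the + strand, carry the core in capitals, and in Cxcl3 also TATAAA:
Cxcl1: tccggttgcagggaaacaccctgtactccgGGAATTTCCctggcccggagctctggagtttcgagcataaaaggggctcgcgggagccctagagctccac
Cxcl2: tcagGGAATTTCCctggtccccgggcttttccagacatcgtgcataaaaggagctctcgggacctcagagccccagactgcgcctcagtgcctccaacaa
Cxcl3: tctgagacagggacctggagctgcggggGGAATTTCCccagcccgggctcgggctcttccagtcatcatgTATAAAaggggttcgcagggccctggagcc
The core began 70, 96 and 72 bases before the start of Cxcl1, Cxcl2 and Cxcl3 in that order. Such a match describes letters and is no evidence of binding.

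In the lymphoid set, Cxcl13 (chr5:95956839-95956938, + strand, TATAAA in capitals) and the downstream start of Ccr6 (chr17:8242406-8242505, + strand, in capitals a run that reads the same on both strands and holds the NF-kB core on each) are shown by 100 bases each. Ccl19 (chr4:42756366-42756615, - strand) is shown by its whole window, because the capitals in it are the sequences of probes on the array:
Cxcl13: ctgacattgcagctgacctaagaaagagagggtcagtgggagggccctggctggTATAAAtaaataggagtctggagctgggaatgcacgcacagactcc
Ccr6: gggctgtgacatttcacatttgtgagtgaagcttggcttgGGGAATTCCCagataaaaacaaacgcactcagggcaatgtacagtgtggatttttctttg
Ccl19: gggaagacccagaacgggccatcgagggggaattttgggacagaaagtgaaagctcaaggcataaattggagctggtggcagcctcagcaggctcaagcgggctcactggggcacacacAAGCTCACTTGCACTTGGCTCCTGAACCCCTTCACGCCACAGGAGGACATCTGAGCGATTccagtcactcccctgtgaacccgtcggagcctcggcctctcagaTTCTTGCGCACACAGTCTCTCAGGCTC
Of the 3 Ccl19 probes on the array, the first in capitals lay whole upstream of the RefSeq start, from 131 to 72 bases before it, and the second began 27 bases before the start and ran into the transcript. The probe used below for Ccl19 was the remaining one, the brightest, and it shared no run of 16 bases with any promoter window.

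Of the classes taken here, with some ligands left out by rule and genes counted by their best probe, homeostatic ligands were the best detected. Of the 11, 9 were well above background in Cy5 on all 23 arrays: Ccl19, Ccl25, Ccl27a, Ccl28, Cx3cl1, Cxcl12, Cxcl13, Cxcl14 and Cxcl16. The other two, Cxcl15, a ligand known from mouse lung, and Cxcl17, a mucosal ligand, were not well above background on any array. Among receptors, 9 of 19 were well above background on all 23 arrays, among them Ccr9, the receptor of gut-homing T cells, Ccr10 of IgA plasma cells, Cxcr5 of follicular lymphocytes and Ccr7 of naive T cells and dendritic cells.

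The neutrophil axis was at or near the limit of detection. Cxcl1 and Cxcl3, which draw neutrophils, and the neutrophil receptors Cxcr1 and Cxcr2 were well above background on 0 of 23 arrays. Cxcl2 was so on 1 of 11 HF-Q arrays and 0 of 12 HF arrays. Cxcl5, a ligand of the same receptors that epithelial cells make, was well above background on 8 of 11 HF-Q arrays and 9 of 12 HF arrays. The monocyte receptors Ccr1 and Ccr2 were above background on no array and on 0 of 11 HF-Q and 1 of 12 HF arrays in that order, together with Ccl7 and Ccl12, ligands of Ccr2, on no array. Ccr4, the receptor of skin-homing and type 2 T cells, its ligand Ccl22, the eosinophil ligand Ccl26 and Xcr1, which marks cross-presenting dendritic cells, were also above background on no array. Of 7 neutrophil markers, 4 were well above background on all 23 arrays and 1 on none.

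In all, 27 genes were above background on all 23 arrays, 8 passed the filter on fewer arrays, and 15 did not pass, of which 13 were above background on no array. To pass, a gene needed a probe well above background in 50% or more of the HF-Q arrays or of the HF arrays. Over the whole array 21477 of 34741 gene names and 52.53% of the probes passed, beside 35 of these 50 genes (70%) and 46 of their 64 probes. The share of all genes above background on all 23 arrays was not counted. Ccl1, a ligand of regulatory T cells, passed only through the HF-Q group, with 6 of 11 HF-Q arrays and 3 of 12 HF arrays above background. Ccl11 (eotaxin) was above background on 10 of 11 HF-Q and 12 of 12 HF arrays, Ccl2 (the monocyte ligand) on 9 of 11 HF-Q and 11 of 12 HF arrays, and Cxcr7 (the scavenging receptor Ackr3) on 9 of 11 HF-Q and 12 of 12 HF arrays. The receptors Ccr3 and Cxcr4 were each above background on 10 of 11 HF-Q and 11 of 12 HF arrays. Detection rested on the probe in 3 genes: 1 Ccr8 probe was above background on 23 arrays and the other on 0, for Ccr9 the counts were 23 and 2, and for Ccl1 they were 9 and 0.

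**Figure D1:**
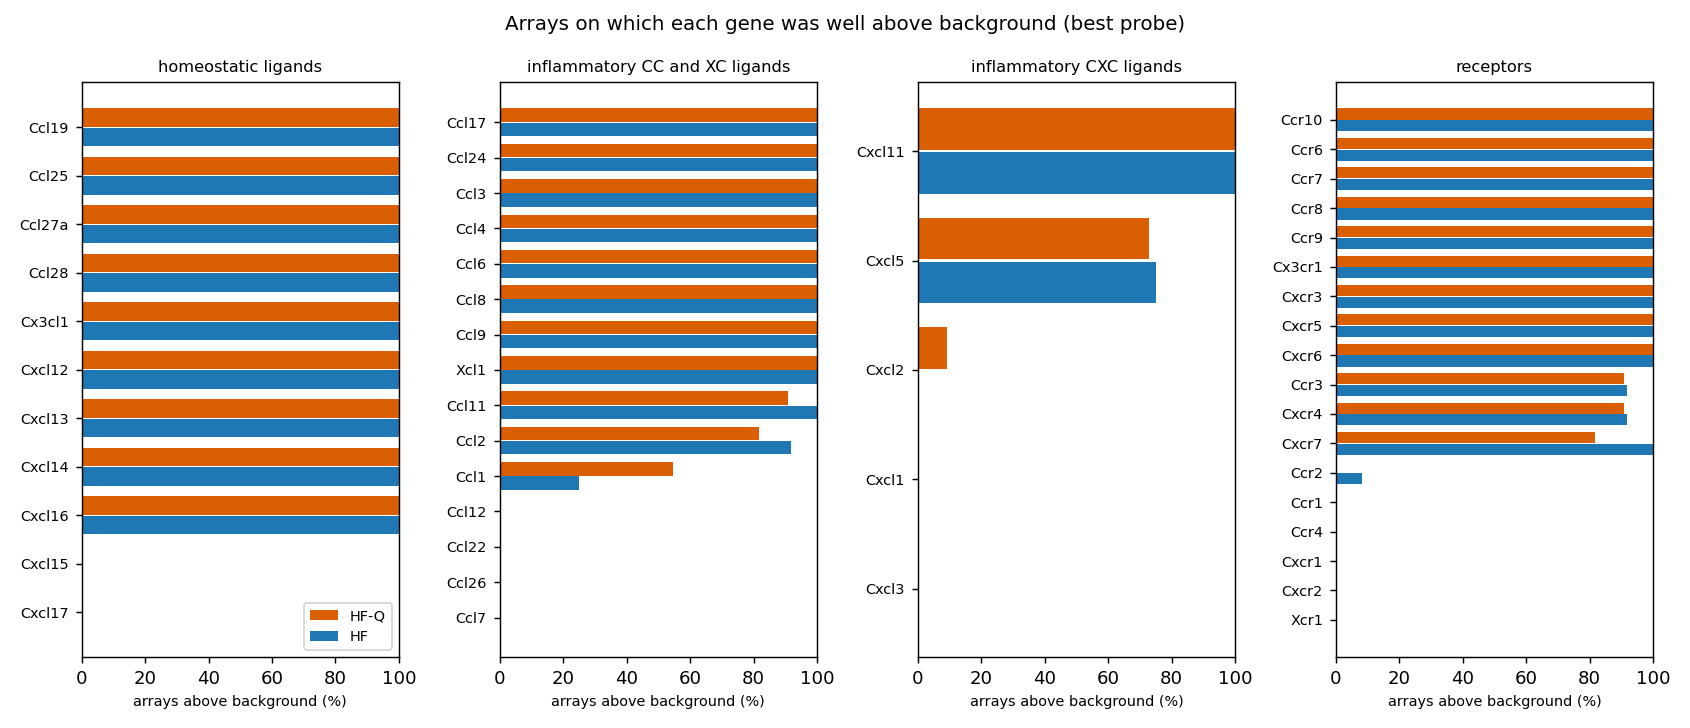
Share of arrays (x axis, percent) on which the best probe of a gene was well above background in Cy5, for HF-Q (upper bar, 11 arrays) and HF (lower bar, 12 arrays), by class of gene. All 9 detected homeostatic ligands reach 100% in both diets, while Cxcl1 and Cxcl3 have no bar and Cxcl2 has 1 HF-Q array.

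No chemokine or chemokine receptor differed between HF-Q and HF mice at an adjusted p under 0.05 in limma. The same was true of all 21477 genes tested (0 called, percent called 0; smallest adjusted p = 0.951). At an unadjusted p under 0.05, 972 genes were past the threshold (4.53%), 452 higher in HF-Q (2.1%) and 520 lower (2.42%). Among the 35 measured chemokines and receptors, 16 had a higher mean and 19 a lower mean in HF-Q mice, and 1 (Cx3cr1, lower) was past the unadjusted threshold. The median log2 fold change of the 35 was -0.0011, beside -0.0038 over all genes, and the values ran from -0.33 to 0.35. The 95% interval of the fold change lay within 1.5-fold either way for 33 of the 35 and within 2-fold for all 35. In bulk tissue, fewer cells of a type and less RNA per cell cannot be told apart.

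**Figure D2:**
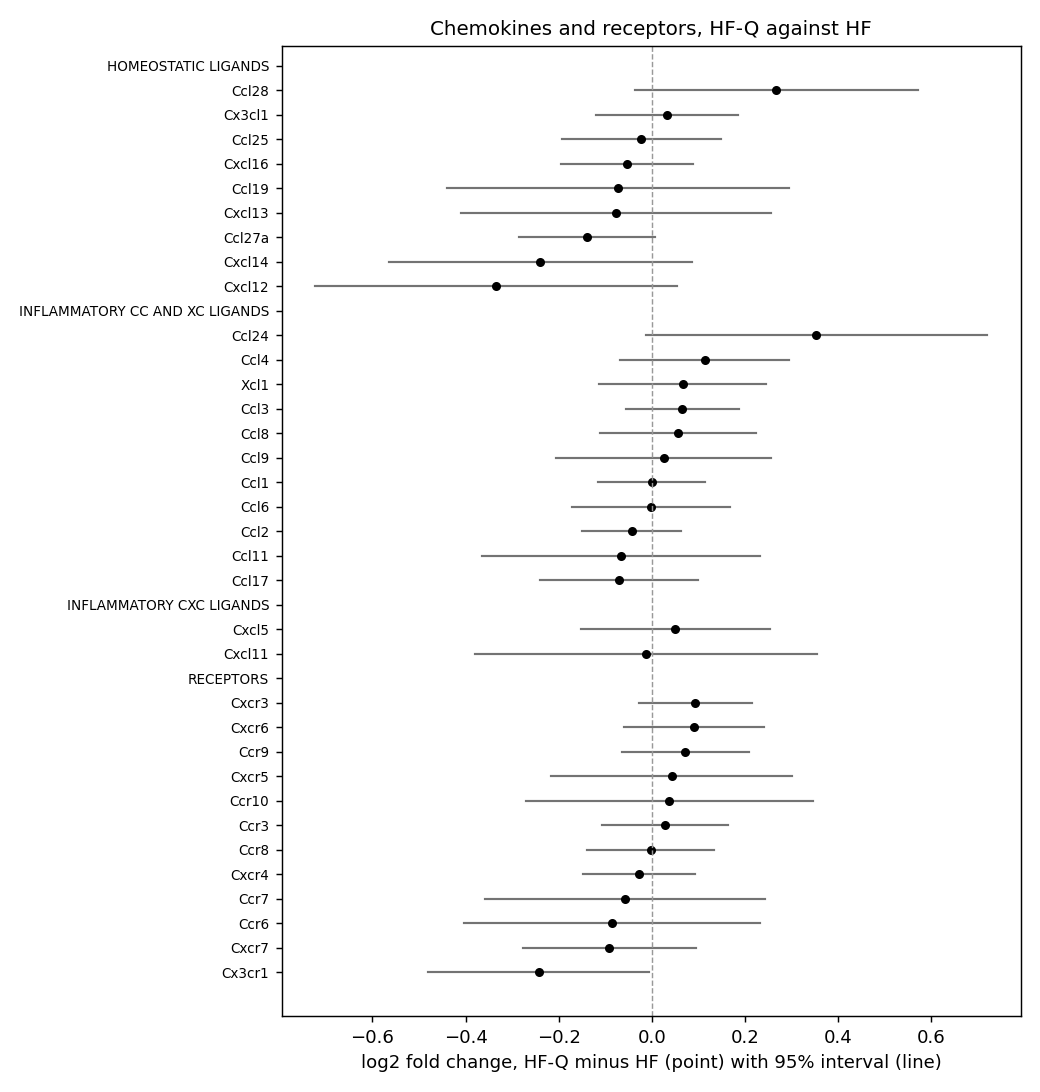
Log2 fold change of the measured genes, HF-Q minus HF (point), with its 95% interval (line), ordered within 4 classes. The points run from -0.33 (Cxcl12) to 0.35 (Ccl24), and the interval of Cx3cr1 is the only one drawn that leaves out 0.

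Gut homing was represented by Ccl25, which enterocytes of the small intestine make, and its receptor Ccr9. Ccl25 ranged from 0.15 to 0.75 (median 0.33) in HF-Q mice, against 0.069 to 0.71 (median 0.44) in HF mice. The 2 ranges overlapped almost whole, and the log2 fold change was -0.02 ± 0.08 SE (limma adjusted p = 0.985). Ccr9 ranged from -0.22 to 0.21 (median -0.03) in HF-Q mice, against -0.45 to 0.19 (median -0.06) in HF mice, again overlapping (0.07 ± 0.07). The direction of Ccl25 was not settled: across its 4 probes the log2 fold change ran from -0.03 to 0.11, and with arrays centred on the median it was 0.091.

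Ccl28, which mucosal epithelium makes, and its receptor Ccr10 bring IgA plasma cells to mucosae. Ccl28 ranged from -0.23 to 0.85 (median 0.44) in HF-Q mice, against -0.53 to 0.76 (median 0.01) in HF mice. The ranges overlapped, with 10 of 11 HF-Q mice higher than the HF median, and the log2 fold change of 0.27 ± 0.15 SE did not pass (unadjusted p = 0.0819, adjusted p = 0.951 in limma). It was 0.34, 0.23 and 0.28 within the 3 slides. Ccr10 ranged from -0.57 to 0.27 (median 0.07) in HF-Q mice, against -0.70 to 0.47 (median 0.03) in HF mice, a log2 fold change of 0.04 ± 0.15 that was -0.17 within slide 1. Markers of plasma cells, 6 measured, had a mean that differed by 0.01 between the diets.

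Genes of lymphoid follicles and T cell zones spread widely among HF mice. Cxcl13, the B cell ligand of follicular stroma, ranged from -0.52 to 0.39 (median -0.08) in HF-Q mice, against -1.01 to 1.09 (median -0.01) in HF mice. Its receptor Cxcr5 ranged from -0.41 to 0.25 (median -0.09) in HF-Q mice, against -0.80 to 0.64 (median -0.19) in HF mice. In both genes every HF-Q mouse lay inside the HF range, and the log2 fold changes were -0.08 ± 0.16 SE and 0.04 ± 0.13.

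Ccl19, the T zone ligand of stromal cells, ranged from -0.46 to 0.37 (median -0.06) in HF-Q mice, against -1.12 to 0.95 (median -0.11) in HF mice. Its receptor Ccr7 ranged from -0.42 to 0.21 (median -0.09) in HF-Q mice, against -0.86 to 0.72 (median 0.04) in HF mice. Ccr6, a receptor of B cells and dendritic cells that enter the dome of Peyer's patches, ranged from -0.35 to 0.23 (median 0.0030) in HF-Q mice, against -0.83 to 1.06 (median 0.10) in HF mice. All 3 HF-Q ranges again lay inside the HF ranges, with log2 fold changes of -0.07 ± 0.18, -0.06 ± 0.15 and -0.09 ± 0.15 for Ccl19, Ccr7 and Ccr6 in that order. For Ccr6, 1 of 11 HF-Q mice was higher than the HF median. Ccl19 has near-identical copies on mouse chromosome 4, so its signal cannot be assigned to a single copy.

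The stromal ligand Cxcl12, which retains plasma cells and haematopoietic cells in tissue, ranged from -1.31 to 0.84 (median -0.13) in HF-Q mice, against -0.24 to 0.86 (median 0.15) in HF mice. The lowest levels were those of HF-Q mice, but the ranges overlapped, and the log2 fold change of -0.33 ± 0.19 SE did not pass (unadjusted p = 0.0887, adjusted p = 0.951). It was -0.25, -0.51 and -0.29 within the slides and -0.13 ± 0.12 by its other probe. Its signalling receptor Cxcr4 ranged from -0.14 to 0.25 (median 0.09) in HF-Q mice, against -0.15 to 0.33 (median 0.07) in HF mice, a log2 fold change of -0.03 ± 0.06. Cxcr7, which binds and removes Cxcl12, was at -0.09 ± 0.09, and Cxcl14, a homeostatic ligand of epithelium and stroma, at -0.24 ± 0.16.

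All 7 fibroblast markers were measured, 6 of them well above background on all arrays, and all 7 were lower on average in HF-Q mice. Their mean level, the fibroblast score, ranged from -0.86 to 0.46 (median -0.17) in HF-Q mice, against -0.17 to 0.58 (median 0.15) in HF mice. Other lists went the same way: all 6 measured smooth muscle markers (median log2 fold change -0.25), all 9 pancreatic acinar markers (-0.51) and 5 of 6 endothelial markers (-0.13) were lower on average in HF-Q mice. None of these markers passed adjustment, and their part in the chemokine values was not tested. With the fibroblast score in the fit, an alternative chosen after seeing the data, the log2 fold change of Cxcl12 was 0.0053 ± 0.12 and that of Cx3cr1 was -0.04 ± 0.07. In that fit 4 of 35 chemokines and receptors had an unadjusted p under 0.05 (Ccl9 at 0.22, Ccl28 at 0.40, Ccl27a at -0.18 and Ccl25 at -0.14), against 1 without the score. Over all 21477 genes the counts were 3018 with the score and 972 without it, and after adjustment limma called 0 genes in either fit.

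Cx3cr1, the receptor of resident macrophages that sample the lumen, ranged from -0.70 to 0.51 (median 0.19) in HF-Q mice, against 0.023 to 0.76 (median 0.25) in HF mice. The ranges overlapped, with 8 of 11 HF-Q mice lower than the HF median, and the log2 fold change of -0.24 ± 0.11 SE (unadjusted p = 0.0443) did not pass adjustment (0.951). Within the slides it was -0.35, -0.28 and -0.11, and its other probe gave -0.04 ± 0.08. Its membrane-bound ligand Cx3cl1 (fractalkine) ranged from -0.54 to 0.22 (median -0.02) in HF-Q mice, against -0.27 to 0.067 (median -0.07) in HF mice, with a log2 fold change of 0.03 ± 0.07. Macrophage and dendritic markers, 9 measured, had a mean that differed by -0.04 between the diets.

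Cxcl16, a ligand that also acts as a scavenger receptor, and Cxcr6, its receptor on mucosal T cells and innate lymphoid cells, did not differ by the probes used. Cxcl16 ranged from -0.21 to 0.31 (median 0.12) in HF-Q mice, against -0.10 to 0.37 (median 0.12) in HF mice. Cxcr6 ranged from -0.25 to 0.12 (median -0.06) in HF-Q mice, against -0.40 to 0.17 (median -0.24) in HF mice. The diets overlapped in both, with 10 of 11 HF-Q mice higher than the HF median of Cxcr6, and the log2 fold changes were -0.05 ± 0.07 and 0.09 ± 0.07. A dimmer Cxcr6 probe, which overlaps the first in sequence (r = 0.822 between them over mice), gave 0.22 ± 0.09 (unadjusted p = 0.0208).

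Cxcr3, the receptor of effector T cells, ranged from -0.20 to 0.19 (median 0.02) in HF-Q mice, against -0.36 to 0.093 (median -0.07) in HF mice, a log2 fold change of 0.09 ± 0.06. The groups overlapped, with 9 of 11 HF-Q mice higher than the HF median. Beside Cxcr3 and Cxcr6, the 6 measured markers of intraepithelial lymphocytes were all higher on average in HF-Q mice, and their score ranged from -0.02 to 0.45 (median 0.13) in HF-Q mice, against -0.51 to 0.25 (median -0.02) in HF mice. Of the 10 T cell markers, 8 were higher on average in HF-Q mice, and 1 of the 10 (Cd8a) is also among the 6. None of these markers passed adjustment, and their part in the chemokine values was not tested.

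Ccl27a, a ligand best known from skin, ranged from -0.28 to 0.32 (median -0.02) in HF-Q mice, against -0.11 to 0.45 (median 0.09) in HF mice. The groups overlapped, and the log2 fold change of -0.14 ± 0.07 SE did not pass (unadjusted p = 0.0609, adjusted p = 0.951). Of its 2 other probes, the one that overlaps the first gave -0.16 ± 0.06 (unadjusted p = 0.0143) and the one that lies apart from it 0.03 ± 0.07. Ccl27a has near-identical copies in the mouse genome and its probes shared runs with probes of other genes, so the signal is uncertain.

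Among inflammatory ligands, Ccl24 (eotaxin-2), which macrophages and epithelium make to draw eosinophils, had the largest fold change of the 35. It ranged from -0.89 to 1.01 (median 0.07) in HF-Q mice, against -0.70 to 0.22 (median -0.21) in HF mice. The highest and the lowest mouse were both in HF-Q, and the log2 fold change of 0.35 ± 0.18 SE did not pass (unadjusted p = 0.0579, adjusted p = 0.951). Within the slides it was 0.66, -0.01 and 0.30. Ccr3, the eosinophil receptor of Ccl24 and Ccl11, was at 0.03 ± 0.07, and Ccl11 at -0.07 ± 0.14.

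The other inflammatory CC and XC ligands lay close to 0. Ccl3 and Ccl4, which activated T cells and macrophages make, were at 0.07 ± 0.06 and 0.11 ± 0.09, each with 9 of 11 HF-Q mice higher than the HF median. Xcl1, a product of activated cytotoxic T cells and NK cells, was at 0.07 ± 0.09, with 10 of 11 HF-Q mice higher than the HF median. Ccl8, a monocyte and eosinophil ligand, was at 0.06 ± 0.08, Ccl9, a ligand of Ccr1 made by follicle epithelium and myeloid cells, at 0.03 ± 0.11, and Ccl6, a myeloid ligand of Ccr1, at -0.0011 ± 0.08. Ccl2 was at -0.04 ± 0.05, Ccl17, a dendritic cell ligand of Ccr4, at -0.07 ± 0.08, and Ccl1 at -0.00075 ± 0.06. Ccr8, the receptor of Ccl1, was at -0.0028 ± 0.07. Ccl2 was spotted 10 times per array. The SD between its single spots on an array had a median of 0.155, and the SD between mice of the mean of its spots was 0.117. These are unlike measures, because a mean of 10 spots varies less than a single spot.

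Of the CXC ligands, Cxcl5 was at 0.05 ± 0.10. Cxcl11, an interferon-induced ligand of Cxcr3, ranged from -0.77 to 1.03 (median 0.26) in HF-Q mice, against -0.26 to 1.05 (median 0.18) in HF mice. The HF-Q mice spanned the wider range, and the log2 fold change was -0.01 ± 0.18 (adjusted p = 0.996). It was -0.53 at its lowest and 0.43 at its highest over the alternatives.

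**Figure D3:**
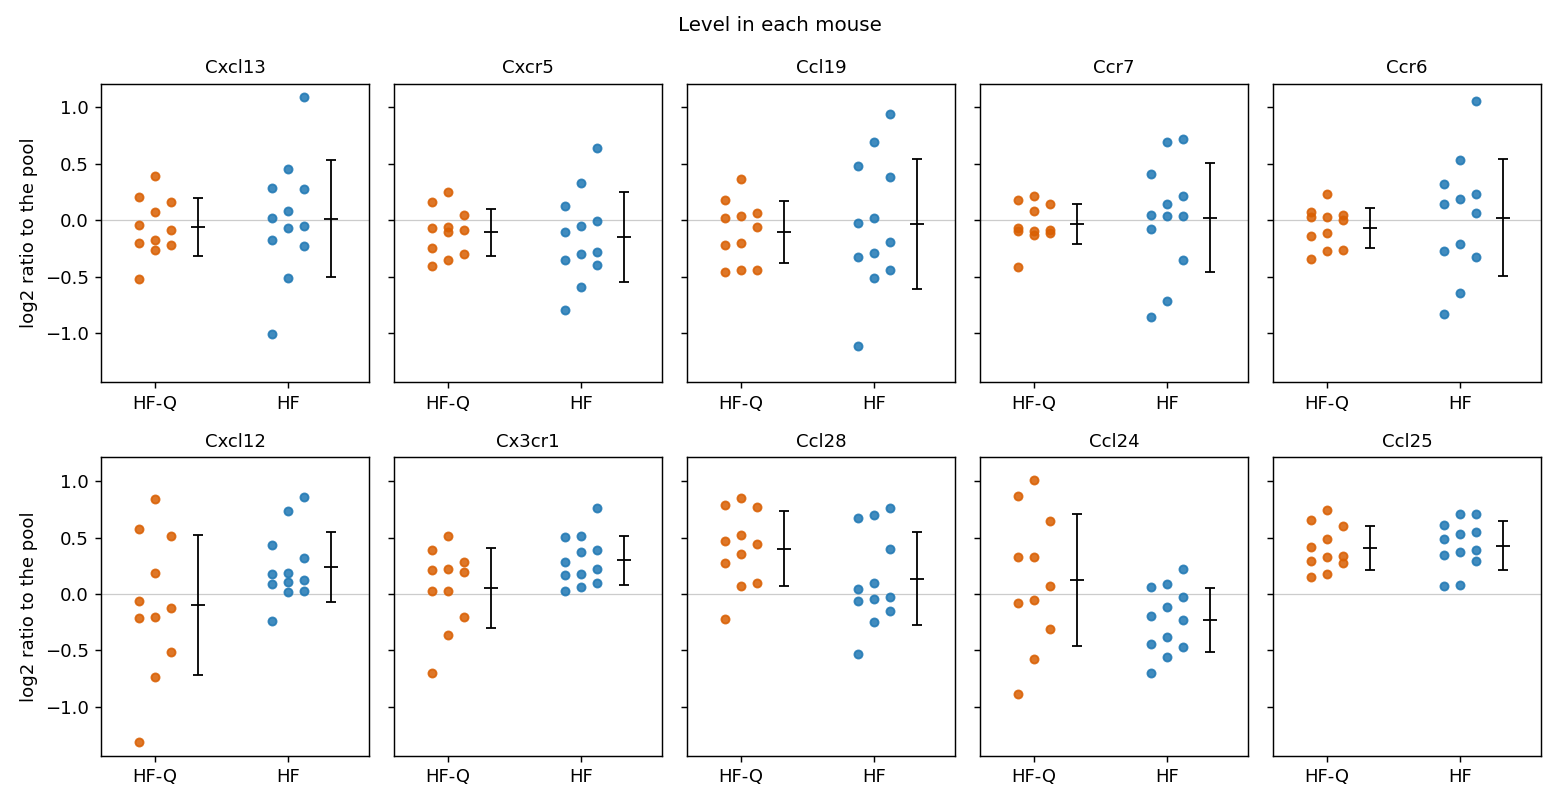
Level of 10 genes in each mouse (log2 ratio to the pool, 1 point per mouse), HF-Q left of HF, with mean and SD beside each group. In the upper row (Cxcl13, Cxcr5, Ccl19, Ccr7 and Ccr6) the HF mice spread wider than the HF-Q mice. In the lower row the diets overlap in Cxcl12, Cx3cr1, Ccl28, Ccl24 and Ccl25.

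The Cxcl11 signal also had to be read with its probe sequences in view. Both Cxcl11 probes (chr5:92788567-92788626 and chr5:92788640-92788699, mm9, - strand) correlated at r = 0.96 over mice. A stretch of each is shown with the run of 16 bases in capitals that recurs elsewhere:
first Cxcl11 probe: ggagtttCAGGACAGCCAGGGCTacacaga
second Cxcl11 probe: cttgaaaGGCAGAGGCAGGAGGAtctcttg
The first shared a run of 16 bases with 55 of the 32851 promoters and with 19 probes of other genes. Of the 18 of those probes that passed the filter, 16 correlated with the Cxcl11 probe at r above 0.5, with a median of 0.951, while 7.94% of all passed probes did. The second shared such a run with 2 probes of other genes, which correlated with it at 0.404 and 0.92. Whether the level of Cxcl11 here is that of its own transcript was not tested.

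The wider pathway was equally without calls. Of 8 other chemokines and atypical receptors, 6 were measured (1 higher and 5 lower on average in HF-Q mice; median log2 fold change -0.06). Pf4, the platelet chemokine, was at -0.20 ± 0.11, Rarres2 (chemerin) at -0.20 ± 0.15, and Ackr1, the chemokine-binding receptor of erythrocytes and venules, at -0.08 ± 0.07. All 22 genes of receptor signalling were measured (6 higher and 16 lower; median -0.02), with Rhoa, the GTPase of cell contraction, at -0.08 ± 0.04 (unadjusted p = 0.0534). Of 14 genes of receptor desensitisation and ligand cleavage, 12 were measured (6 higher and 6 lower; median 0.01), with Rgs1, which dampens receptor signals in lymphocytes, at 0.14 ± 0.09, and Dpp4, a protease that trims chemokines, at 0.08 ± 0.07. None of the 40 passed adjustment or had an unadjusted p under 0.05, beside 4.53% of all genes.

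Ligands and their receptors were next compared over the 23 mice. Of 26 ligand and receptor pairs listed, 15 had both members measured, and 3 passed by Pearson's r and by Spearman's rho (100000 permutations each, Benjamini-Hochberg adjusted over 15). Cxcl13 and Cxcr5 correlated at r = 0.904 (rho = 0.781; permutation p = 1e-05, the smallest these permutations can give; adjusted p = 1e-04). The ligand ranked 2 of 21476 genes by its correlation with the receptor. Without the 2 mice with the most extreme Cxcl13 level, HF mice 2 and 3, r was 0.806, within the diets 0.724 (HF-Q) and 0.963 (HF), and within the slides 0.877, 0.854 and 0.948.

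Ccl19 and Ccr7 correlated at r = 0.833 (rho = 0.716; permutation p = 2e-05, adjusted p = 1e-04), and Ccl19 ranked 18 of 21476. Here r was 0.698 without the same 2 mice and 0.264 in HF-Q mice against 0.924 in HF mice, and the difference between the diets was not tested. Within the slides it was 0.836, 0.72 and 0.764. Cxcl12 and its scavenger Cxcr7 correlated at r = 0.771 (rho = 0.698; adjusted permutation p = 1e-04), with 0.637 without the 2 extreme mice, 0.929 in HF-Q mice, 0.461 in HF mice, and 0.914, 0.662 and 0.837 within the slides. Cxcl12 ranked 191 of 21476 by this correlation, and Cxcr7 correlated more with Cxcl14 (r = 0.83) and Ccl11 (r = 0.807), so the value was not particular to the pair. The Cxcr7 probe shared a run of 16 bases with 27 of the 32851 promoters and with 2 probes of other genes, whose part in its signal was not tested. Cxcl12 and its signalling receptor Cxcr4 did not pass (r = 0.329, rho = 0.277, adjusted permutation p = 0.266).

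The gut-homing and mucosal pairs did not pass. The correlation of Ccl25 with Ccr9 was r = 0.03 (rho = 0.0395, adjusted permutation p = 0.893), and that of Ccl28 with Ccr10 was r = 0.455 (rho = 0.383, adjusted p = 0.114). Cxcl16 and Cxcr6 were at r = -0.312 (rho = -0.303, adjusted p = 0.275), and Cx3cl1 and Cx3cr1 at r = -0.209 (rho = -0.0968, adjusted p = 0.46). Over the 15 pairs, 12 had a positive and 3 a negative r.

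**Figure D4:**
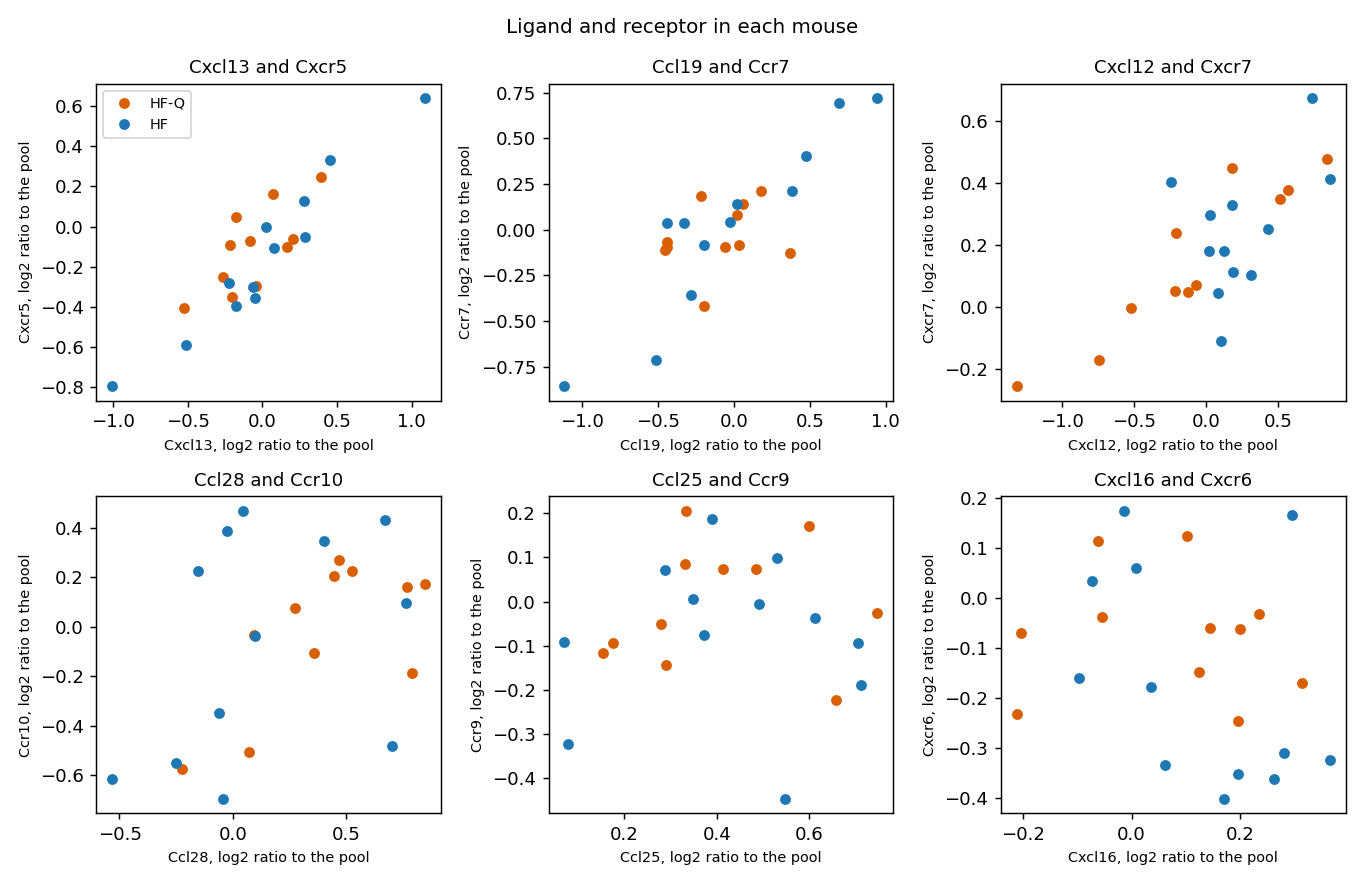
Receptor against ligand in each mouse (log2 ratio to the pool on both axes) for 6 pairs, HF-Q and HF mice in 2 colours. Points follow a line for Cxcl13 and Cxcr5 (r = 0.904), Ccl19 and Ccr7 (r = 0.833) and Cxcl12 and Cxcr7 (r = 0.771), and scatter for Ccl25 and Ccr9 (r = 0.03).

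Cxcl13, Cxcr5, Ccl19, Ccr7 and Ccr6 varied together from mouse to mouse. Their 10 pairwise correlations ran from 0.622 to 0.904 (median 0.829), beside a median of 0.0407 over the 595 pairs of the 35 genes. These 5 were singled out after their values were seen, and the figures describe them without a test. In each of the 5, HF mouse 3 was the lowest HF mouse, HF mouse 1 the second lowest and HF mouse 2 the highest. The SD in HF-Q mice was smaller than in HF mice in 5 of 5, with a median ratio of 0.471, beside 22 of 35 over all measured chemokines and receptors (ratio 0.927) and 48% of all genes (ratio 1.02).

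The same genes followed the B cell markers. The B cell score, the mean of 10 measured markers of which 8 were well above background on all arrays, ranged from -0.16 to 0.19 (median -0.0030) in HF-Q mice, against -0.54 to 0.55 (median 0.04) in HF mice. Correlations with the B cell and intraepithelial lymphocyte scores were computed for 35 genes each, 70 in all. With the B cell score, r was 0.918 for Cxcl13, 0.91 for Ccr6, 0.886 for Ccr7 and 0.876 for Cxcr5 (rho = 0.885, 0.816, 0.722 and 0.774 in the same order; each permutation p = 1e-05 and adjusted p = 0.000175 for r). Without HF mice 2 and 3, the mice with the most extreme score, r was 0.757 to 0.821 for these 4, in HF-Q mice 0.559 to 0.792, in HF mice 0.928 to 0.957, and within the slides 0.83 to 0.954.

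Ccl19 passed by r (0.711, adjusted permutation p = 0.00254) and not by rho (0.441, adjusted p = 0.147). Its r was 0.411 without HF mice 2 and 3, -0.129 in HF-Q mice and 0.858 in HF mice, so it was weaker without those 2 mice. Within the slides its r was 0.736, 0.444 and 0.72, and slide 2 held neither of those mice. The upstream Ccl19 probe shown above had r = 0.131 with the score and the probe across the start had 0.404. Ccl1 was the only gene with a negative r that passed (-0.622, rho = -0.686, adjusted p = 0.012), and it was above background on 9 arrays in all. An r above 0.6 with the B cell score was found in 5 of 35 chemokines and receptors and in 0.819% of all genes.

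With the intraepithelial lymphocyte score, Ccl4 had r = 0.72 (rho = 0.847, adjusted permutation p = 0.00126), Cxcr6 0.699 (rho = 0.706, adjusted p = 0.002) and Cxcr3 0.542 (rho = 0.571, adjusted p = 0.0387). For Ccl4, r was 0.707 without the 2 extreme mice, 0.78 in HF-Q and 0.689 in HF mice, and 0.832, 0.786 and 0.693 within the slides. For Cxcr6 the values were 0.659, 0.497 and 0.773, and 0.59, 0.791 and 0.769. For Cxcr3 they were 0.477, 0.297 and 0.543, and 0.789, 0.484 and 0.404. The gut-homing receptor Ccr9 passed by rho (0.572, adjusted p = 0.0359) and not by r (0.496, adjusted p = 0.0788). Cxcl12 had the most negative r (-0.71, rho = -0.663, adjusted permutation p = 0.002). Cx3cr1 (-0.606), Cxcl14 (-0.6) and Cxcr7 (-0.551) also passed by r with a negative sign, and of these only Cxcl14 passed by rho as well. An r above 0.6 with this score was found in 2 of 35 chemokines and receptors and in 0.987% of all genes. An r below -0.6 was found in 2 of 35 and in 1.17%.

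Scores of 6 further marker lists, 210 correlations in all, were chosen after the first results were seen. Ccl25 rose with the enterocyte score (r = 0.775, rho = 0.812, permutation p = 2e-05, adjusted p = 0.000382), the only gene to pass with a positive sign by both measures, while Ccl24 passed by rho alone (0.531, adjusted p = 0.0417). An r above 0.6 with this score was found in 1 of 35 chemokines and receptors and in 6.64% of all genes, and an r below -0.6 in 2 of 35 and in 9.68%. For Ccl25, r was 0.738 without the 2 extreme mice, 0.752 in HF-Q and 0.794 in HF mice, and 0.869, 0.794 and 0.623 within the slides. These values came from the brightest of its 4 passed probes. The other 3 had r = 0.362, 0.341 and 0.159, and none of them passed (adjusted permutation p = 0.224, 0.224 and 0.47 over 8 tests of Ccl25 probes chosen after seeing the data). Ccl9 went the other way (r = -0.77, rho = -0.843, adjusted p = 0.000382), with -0.729 in HF-Q and -0.846 in HF mice and -0.653, -0.921 and -0.88 within the slides.

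Ccr10 followed the plasma cell score (r = 0.856, rho = 0.799, permutation p = 1e-05, adjusted p = 0.000262). Without the 2 extreme mice r was 0.849, in HF-Q mice 0.847, in HF mice 0.86, and within the slides 0.966, 0.81 and 0.772. HF mice 1 to 4 and HF-Q mice 2 and 3 stood apart in both measures. The plasma cell score was -0.45 and -0.43 in these HF-Q mice, against -0.59 to -0.39 in these HF mice, while the other mice were at -0.16 or above. Ccr10 was at -0.57 and -0.51 in these HF-Q mice, against -0.70 to -0.35 in these HF mice, and of the other mice HF mouse 7 was as low (-0.48). Without these 6 mice, left out after seeing the data, r was 0.53 and rho 0.571 over 17 mice.

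Of the 35 genes, 10 passed by r with a positive sign with the plasma cell score and 2 with a negative sign. After Ccr10 the highest were Cxcr4 (r = 0.7, rho = 0.634), Ccl9 (0.69, rho = 0.554) and Ccl6 (0.645, rho = 0.581), and each passed by both measures. The Ccr10 ligand Ccl28 passed by r (0.63, adjusted p = 0.0073) and not by rho (0.49, adjusted p = 0.0602). Ccl25 was at -0.769 (rho = -0.673, adjusted p = 0.000262), while its other 3 probes were at -0.188 to -0.284 and did not pass. Without the same 6 mice r was 0.588 for Cxcr4, 0.00855 for Ccl9, 0.268 for Ccl6, -0.0396 for Ccl28 and -0.372 for Ccl25. These 6 mice had the lowest plasma cell scores, and cutting off the low end of a score can by itself weaken r. Whether the relations hold among the other mice was therefore not settled. The plasma cell score had an r above 0.6 with 6 of 35 chemokines and receptors and with 9.03% of all genes.

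With the fibroblast score, r was 0.886 for Cxcl14, 0.864 for Cx3cr1, 0.861 for Cxcl12 and 0.83 for Cxcr7 (rho = 0.751, 0.745, 0.759 and 0.824 in the same order; each permutation p = 1e-05 and adjusted p = 0.000262 for r). Without HF-Q mice 2 and 3, which had the most extreme scores, r was 0.738 to 0.801 for these 4, in HF-Q mice 0.896 to 0.969, in HF mice 0.602 to 0.685, and within the slides 0.715 to 0.966. The other probes gave 0.671 for Cxcl12 and 0.369 for Cx3cr1, the second of which did not pass (adjusted permutation p = 0.297 over 36 tests of single probes). Ccl11, Ccl9 and Ccl2 followed at 0.716, 0.722 and 0.706, and Ccl25 was at -0.627. The other 3 Ccl25 probes were at -0.389, -0.108 and 0.168 and did not pass (adjusted permutation p = 0.267, 0.787 and 0.664 over the same 36 tests). In all, 9 genes passed by r with a positive sign, and an r above 0.6 was found in 7 of 35 chemokines and receptors and in 8.93% of all genes. The smooth muscle, endothelial, and macrophage and dendritic scores gave 9, 9 and 10 genes that passed by r with a positive sign in that order, Cxcl12, Cxcl14, Cx3cr1, Cxcr7, Ccl9, Ccl11, Ccl2 and Cxcr4 among them each time. An r above 0.6 was found in 8 of 35 chemokines and receptors and 11% of all genes with the smooth muscle score, 6 of 35 and 6.69% with the endothelial score, and 9 of 35 and 8.6% with the macrophage and dendritic score.

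In both diets the fibroblast score was negative in the mice with the lower replicate numbers and positive in the rest. The groups below were cut at that change of sign after seeing the data, so their scores separate by construction. Cxcl12 and Ccl25, which correlated with that score, are given for the same groups without a test. The score was -0.86 to -0.17 in HF-Q mice 1 to 6 and 0.08 to 0.46 in HF-Q mice 7 to 11, against -0.17 to -0.05 in HF mice 1 to 4 and 0.09 to 0.58 in HF mice 5 to 12. Cxcl12 was at -1.31 to -0.07 in HF-Q mice 1 to 6 and -0.20 to 0.84 in HF-Q mice 7 to 11, against 0.08 to 0.32 in HF mice 1 to 4 and -0.24 to 0.86 in HF mice 5 to 12. Ccl25 was at 0.33 to 0.75 in HF-Q mice 1 to 6 and 0.15 to 0.33 in HF-Q mice 7 to 11, against 0.55 to 0.71 in HF mice 1 to 4 and 0.07 to 0.53 in HF mice 5 to 12. The labels do not say what the number stands for. In the differences between 11 same-numbered HF-Q and HF mice, computed after seeing the data, r with the fibroblast score was 0.751 for Cxcl14, 0.763 for Cx3cr1, 0.927 for Cxcl12, 0.67 for Cxcr7 and -0.241 for Ccl25. In the same differences r was 0.455 for Ccl25 with the enterocyte score and 0.779 for Ccr10 with the plasma cell score.

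**Figure D5:**
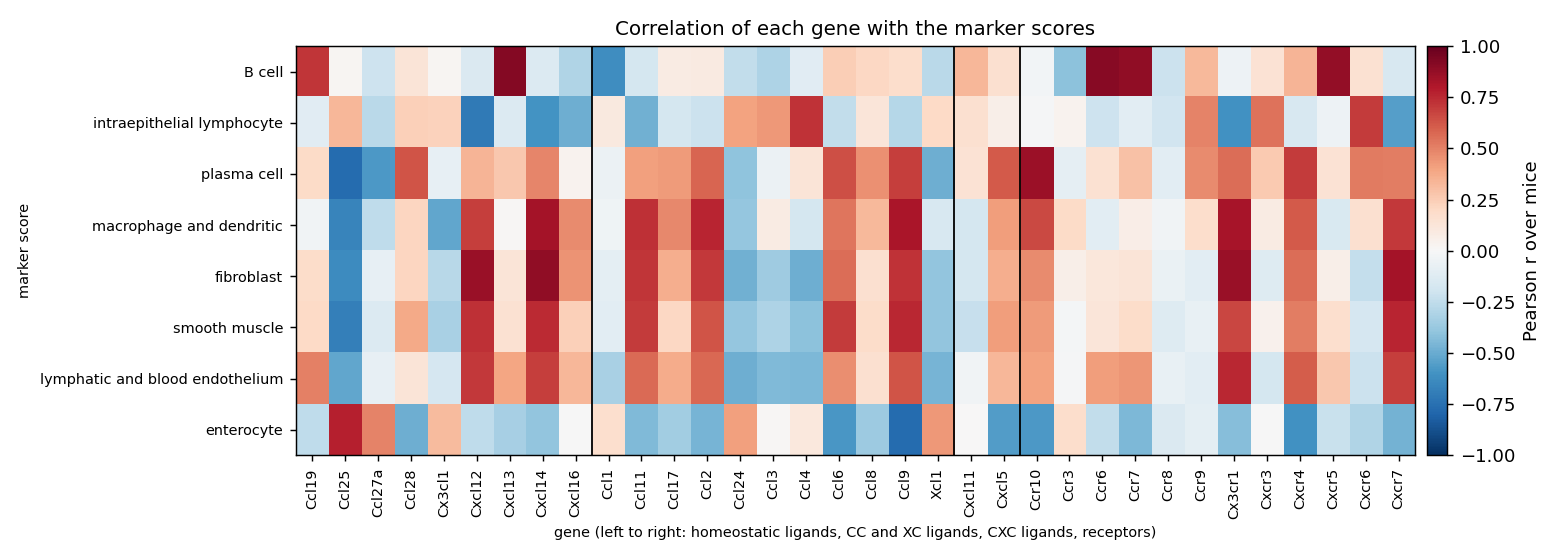
Pearson's r over 23 mice between the measured genes (x axis, by class) and 8 marker scores (y axis), red for positive and blue for negative. In the B cell row Cxcl13, Ccr6, Ccr7, Cxcr5 and Ccl19 are red. In the fibroblast row Cxcl14, Cx3cr1, Cxcl12 and Cxcr7 are red and Ccl25 is blue, and Ccl25 is red in the enterocyte row.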

How the data were processed

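The deposited scanner files hold mean spot and median background intensity values from Agilent Feature Extraction 10.7.3.1, not normalized between arrays, with probes placed on genome build mm9, per the file headers. The deposited files also hold the log10 ratio of Cy5 over Cy3 that the software made after background subtraction and dye normalization, per the file headers. The authors also deposited log2 values, processed by steps that no source used here states, for 31718 spots of 29141 probes, and their columns correlated with Cy5 at 0.995 to 0.999. Both were used as alternatives.

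From the intensities, limma 3.58.1 in R 4.3.3 applied normexp (offset 50) and loess within arrays, with 3671 control spots at weight 0 and 260 to 355 outlier spots per array left out. Spots of a probe were averaged, and 29249 of 55681 probes passed the filter on Cy5 signal. The brightest passed probe stood for a gene, and lmFit and eBayes were run on 21477 genes with Benjamini-Hochberg adjustment. Members carried the name in the files; other probes were named through RefSeq accessions (27235), symbols (3581) or synonyms (565), and 24300 kept the name in the files.

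In simulated data with 100 genes shifted by 0.5 and 100 by 1 on the log2 scale in HF-Q against HF (21477 genes), 89 and 97 were recovered with 8 false calls. Those counts are not for chemokines. The median SD over mice was 0.16 for all 21477 genes, 0.21 for the 35 measured chemokines and receptors and 0.39 for the 9 measured homeostatic ligands. How often a shift of 0.5 or 1 in these chemokines, or in fewer genes, would be called was not tested. A marker score is the mean of the measured markers of a list. Correlations used 100000 permutations. A shared run between probes, or between a probe and a promoter, was 16 bases. Full values were given for 15 members of known mucosal and lymphoid axes, the 6 with the smallest unadjusted p and the 4 with the largest SD over mice. The members, lists and alternatives were chosen with earlier results of these data known. The main fit did not pair mice by replicate number, because the labels do not say what the number stands for. Deviations of same-numbered mice correlated at -0.345 to 0.391, 5 of 11 pairs above 0.1. Such correlations cannot show whether same-numbered mice shared any handling. The limma p-values rest on the spread between these mice. The permutations exchanged all mice freely, across diets, slides and replicate numbers, and so take the mice as exchangeable. The fibroblast score went with the replicate number in both diets, so permutation p-values can be too small. Of the 50 genes, 1 is in the counts but its own values are not reported here.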

Additional observations from a re-analysis of the deposited data

How the results depend on the processing

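Under every alternative run (other background handling and normalization, the scanner software's log10 ratios, the authors' log2 table, other filters, the slide as a block, the replicate block, other probe rules, marker scores in the fit, each slide alone and each mouse left out) limma called 0 genes, so no member was called in either direction. The smallest adjusted p over these fits was 0.218, with the fibroblast score, and 672 to 3018 genes had an unadjusted p under 0.05, with 1906 under the B cell and smooth muscle scores, 3018 under the fibroblast score and 1586 of 34741 genes with no filter. With the replicate number as a block, although the labels do not say what it stands for, 947 genes had an unadjusted p under 0.05. In that fit the smallest adjusted p was 0.925 and Cx3cr1 was at -0.201. With arrays centred on their median, the log2 fold change of all genes had a median of 0.0488.

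The log2 fold changes that changed sign were of members past no threshold, and their cause was not tested. With median centring Ccl25, Cxcl16 and Cxcl11 were at 0.0909, 0.0161 and 0.0996. With the scanner software's log10 ratios Cxcr4 was at 0.00302, and with the authors' log2 table Ccl25 and Cxcl11 were at 0.0293 and 0.0419. With the mean of a gene's probes Ccl25 was at 0.018, and with Cy5 alone Ccl25 and Cxcr4 were at 0.00285 and 0.0236. With B cell and smooth muscle scores Cxcr4 was at 0.000386, and with the fibroblast score, added after seeing the data, Cxcl12, Cxcr4, Cxcl16 and Cx3cl1 were at 0.00527, 0.0364, 0.006 and -0.00667. Within slide 1, Ccl25, Ccr10, Cxcl13, Ccl19 and Ccr7 were at 0.00656, -0.169, 0.195, 0.0486 and 0.0478. Within slide 2, Ccr10, Cxcl13, Ccr7 and Cxcr4 were at -0.0416, 0.308, 0.213 and 0.0669, and Cx3cl1, Ccr6, Ccl24 and Cxcl11 at -0.0901, 0.393, -0.0116 and 0.435. Within slide 3, Cxcr5, Cxcl16, Cxcr3 and Cxcl11 were at -0.42, 0.141, -0.00596 and 0.149.

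With each mouse left out in turn, Ccl25 ranged from -0.0572 to 0.00289, Ccr10 from -0.0202 to 0.092, Cxcl13 from -0.17 to 0.0209 and Cxcr5 from -0.0168 to 0.114. Ccl19 ranged from -0.171 to 0.0169, Ccr7 from -0.139 to 0.00486, Ccr6 from -0.164 to 0.00853 and Cxcl11 from -0.0888 to 0.0916. For Cxcl13, Cxcr5, Ccl19, Ccr7 and Ccr6 the ends of the ranges were the fits without HF mouse 2 and without HF mouse 3. The other 11 named members kept their sign in each of these refits.

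Arrays limit precision by their number, and genes not well above background have no fold change here. Probes of Cx3cr1, Cxcl12, Cxcr6, Ccl19, Ccl27a and Ccl25 gave different sizes, and the 4 Ccl25 probes (-0.03 to 0.11) correlated with each other at 0.132 to 0.495. Signals of Cxcl11, Ccl19 and Ccl27a were not shown to come from 1 transcript.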
